A study of Homo sapiens with 24 samples.

Results

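The BCL2 family controls the mitochondrial branch of apoptosis. Its protective members hold the pore formers BAX and BAK1 in check at the outer mitochondrial membrane, and the BH3-only members bind the protective proteins, or the pore formers themselves, and so favour release of cytochrome c and activation of caspases. In colonic cells, butyrate, a fermentation product of dietary fiber and an inhibitor of histone deacetylases, is known for inducing apoptosis and for raising Wnt activity in many colorectal cancer lines.

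The members were taken by gene name among the non-control probes of the array. They are 10 genes of the 27274 gene names on the array: BCL2, BCL2L1 and MCL1, which protect cells, the pore formers BAX and BAK1, and the BH3-only genes BBC3, PMAIP1, BIK, BMF and BCL2L11. They are covered by 15 probes. HCT-116 is a human colorectal cancer cell line, and the cells used were stably transfected with a Tet repressor and with a dominant negative Tcf4 (DN-Tcf4) that doxycycline induces, and went through clonal selection, so that all groups share these vectors and this one background. Cells were given neither agent (Ctl, titled untreated and tagged mock-treated in the labels), sodium butyrate at 5 mM (NaB), doxycycline at 4 μg/ml (Doxy), or the 2 agents together (DoxyNaB). Per the study's methods, doxycycline was given first, and the cotreatment with or without butyrate that followed lasted 17.5 hr. Each treatment was measured in 6 experiments, described as biological replicates, which gave 24 arrays in 1 colour. The comparisons ask how butyrate moves each gene (NaB/Ctl) and how it does so in cells given doxycycline (DoxyNaB/Doxy). They also ask what doxycycline does without and with butyrate (Doxy/Ctl and DoxyNaB/NaB). The interaction, NaB minus Ctl less DoxyNaB minus Doxy, asks whether the butyrate response differs between the conditions. By western blot, the study reports minimal DN-Tcf4 protein with doxycycline alone and high levels with both agents. In DoxyNaB/Doxy and in the interaction, butyrate and the rise of DN-Tcf4 therefore cannot be told apart.

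A level below is a log2 signal from which the array's own 75th percentile (in log2) was subtracted. It allows a probe to be followed between arrays, but not one gene to be set against another. A probe was tested when some treatment had it well above background on each of its 6 arrays, and a gene was called when its brightest tested probe differed by over 2-fold with an adjusted p under 0.01 (limma, Benjamini-Hochberg over all 18984 probes tested). The interaction was called on the adjusted p alone. A change is given as the mean over experiments, with the SD over 6 experiments. The arrays hold RNA of whole cultures, where fewer cells and less RNA per cell cannot be told apart.

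The arrays of experiments 2 to 4 had 78.3% to 88.1% of spots well above background, and those of the other experiments 52.5% to 62.4%. Negative controls were highest on the NaB array of experiment 3 (net signal 161) and the DoxyNaB array of experiment 2 (248.9), against 48.4 to 115 on the other 22. In experiments 2, 3 and 4 they were 76.9, 68.4 and 63.1 in Ctl and 114.6, 161 and 112.1 in NaB arrays. In Doxy arrays they were 77.8, 68.7 and 79.6, and in DoxyNaB arrays 248.9, 69.1 and 110.9. The part of this background in the changes of dim probes was not tested. Within experiment 1, the butyrate arrays were on another slide, and were scanned on another date, than the arrays without butyrate. TCF7L2, the gene from which DN-Tcf4 derives, has 3 tested probes, of which the brightest was higher in DoxyNaB than in NaB cells by 2.96 ± 0.88 (adjusted p = 3.65e-05, limma), the next by 4.46, while the remaining one changed by -1.25. In Doxy relative to Ctl cells the brightest changed by -0.17 (adjusted p = 0.921, limma), so that a rise of the transcript with doxycycline alone was not detected on these arrays. AXIN2, a Wnt target, was lower in Doxy than in Ctl cells by a log2 change of -0.58 (adjusted p = 0.0029, limma). It changed by -2.53 ± 0.34 in DoxyNaB/NaB (adjusted p = 2.64e-11, limma) and by 1.19 ± 0.29 in NaB/Ctl (adjusted p = 2.06e-09, limma). Of 7 colon epithelial markers, 6 were tested, with VIL1 well above background on 5 of 24 arrays. In NaB/Ctl 1 of the 6 was called, lower by a log2 change of -1.45, as were 11.5% of all genes tested. Of 8 markers of immune, endothelial and stromal cells, 3 were tested, in a culture of 1 cell line. In NaB/Ctl, CD14 (by 1.35) and, over 5 experiments, COL1A1 (by 1.09) were called higher, as were 21.0% of all genes tested. VWF was higher by 2.77, but cleared background on 3 of 6 Ctl and 6 of 6 NaB arrays. Its probe entered the test through its butyrate arrays, so its change is a description. The summed signal of the 8, in units of the 75th percentile of the array, was 0.368 to 0.913 in Ctl, 0.867 to 2.09 in NaB, 0.359 to 0.912 in Doxy and 0.975 to 2.59 in DoxyNaB arrays, and that of the epithelial markers 210.01 to 501.8 over all arrays. COL3A1 was above background on 0 arrays. Their part in the results below was not tested.

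Where the probes lie matters for several members, because BAX and BCL2L11 are each read at more than one place. All positions are those of the files, on NCBI36, and each probe has 60 bases, of which the first 30 are given here, 5′ to 3′ and in lower case throughout, for the tested probes of both genes and for the pair of BH3-only genes whose butyrate response differed with doxycycline.
BAX probe 1 (chr19:54156716-54156775, plus strand, listed under NM_138764, printed in 10 spots): tgccttggactgtgtttttcctccataaat
BAX probe 2 (chr19:54156266-54156325, plus strand, listed under NM_004324): ctgcctctggaattgctcaagttcattgat
BCL2L11 probe 1 (chr2:111642363-111642422, plus strand, listed under NM_138621): acttgtgttttgcactgatgaattttgaca
BCL2L11 probe 2 (chr2:111595176-111595235, plus strand, listed under NM_207002): cctttcttggcccttgttcccccaaatgtc
PMAIP1 (chr18:55721671-55721730, plus strand): ggggccagtaaatcagtagactgaacattc
BIK (chr22:41855439-41855498, plus strand): ttttcgttttttctaaaagatgaattccta
The BCL2L11 probes start 47187 bases apart, and each is listed for a different transcript of the gene. The other tested probes lie at chr20:29716985-29717044 (BCL2L1, 10 spots), chr1:148814246-148814305 (MCL1), chr6:33648563-33648622 (BAK1), chr19:52416014-52416073 (BBC3) and chr15:38167742-38167801 (BMF), all on the minus strand. An annotation of this build was not used here, so exon and UTR assignments are not given.

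With butyrate, BCL2L1 and BAX were lower and BCL2L11 was higher, in both the absence and the presence of doxycycline, and BMF was higher on a probe that was dim without butyrate. In NaB/Ctl, 4 of the 9 tested members were called, against 32.4% of all genes tested, with 2 higher (21.0% of all genes) and 2 lower (11.5%). By the adjusted p alone, 8 of 9 passed, against 69.6% of all genes, with 6 higher (40.6%) and 2 lower (29.0%). In DoxyNaB/Doxy the same 4 genes were called, against 31.2% of all genes, 2 higher (18.7%) and 2 lower (12.5%), and 7 of 9 passed the adjusted p (68.4% of all genes), 4 higher (38.1%) and 3 lower (30.3%). The probe of BMF entered the test through its butyrate arrays, so its part in these counts is a description. With signal asked on all 24 arrays, 8 members were tested and 3 of them, BCL2L1, BAX and BCL2L11, were called in each comparison. Under that filter, 3386 of all 12355 genes tested were called in NaB/Ctl and 3322 in DoxyNaB/Doxy. The members' median change was 0.59 in NaB/Ctl and 0.03 in DoxyNaB/Doxy, beside medians over all genes of 0.17 and 0.11. The members' shares lay near those of all genes, most of which passed the adjusted p.

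**Figure D1:**
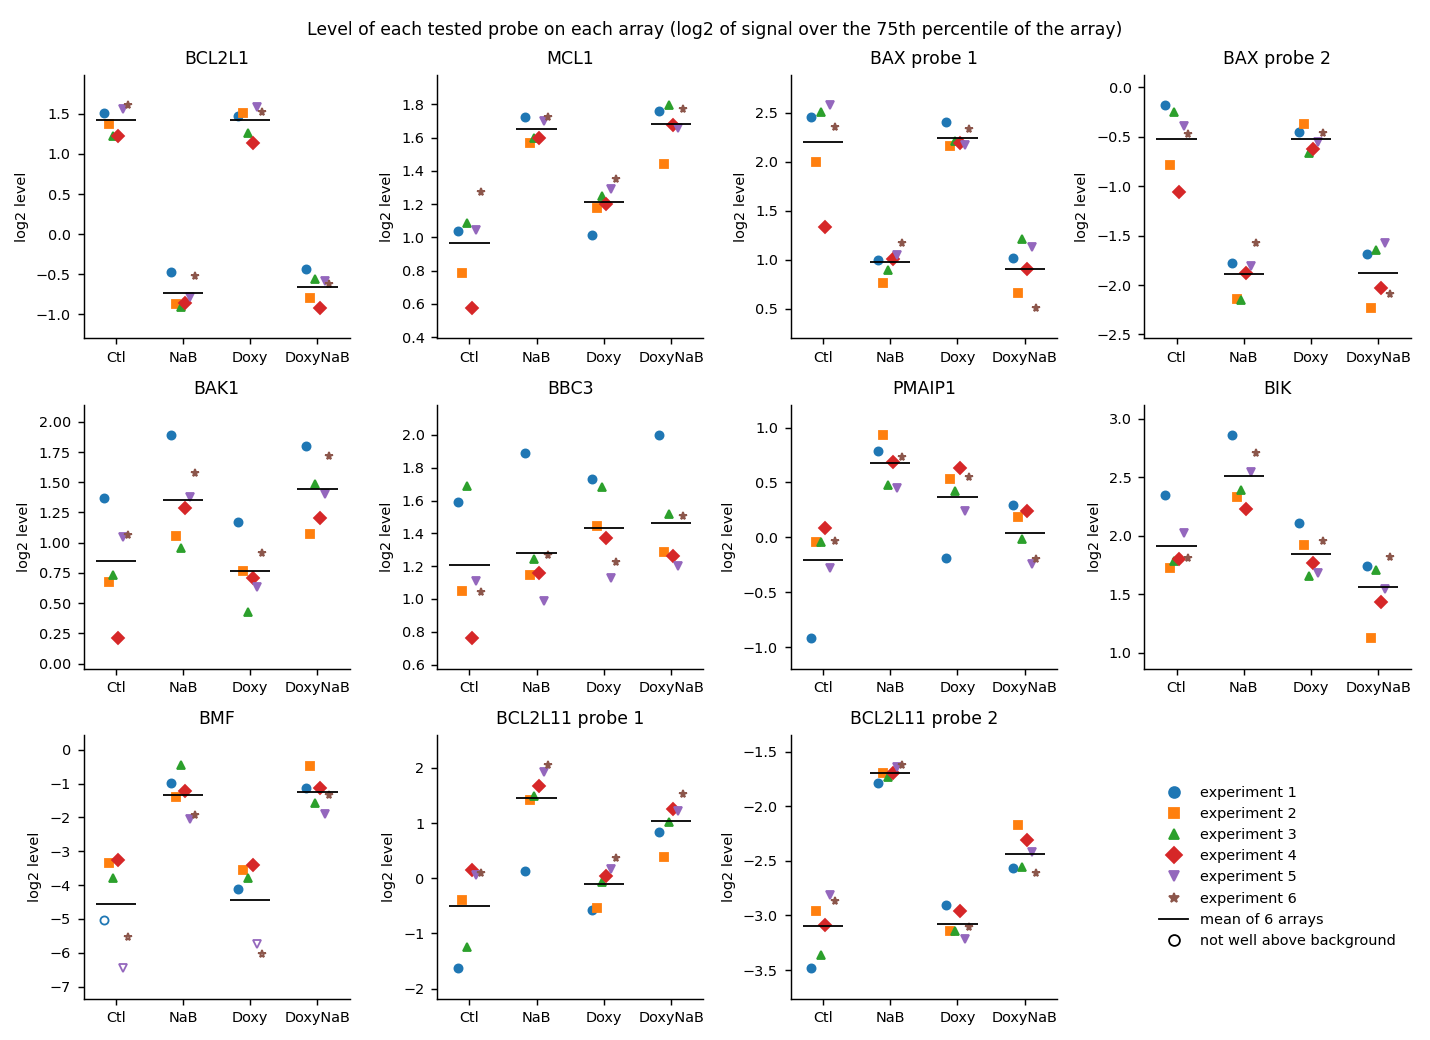
Log2 level of each of the 11 tested probes on each of the 24 arrays, by treatment (x axis), with the experiment as colour and symbol, the mean of 6 arrays as a line and open symbols where the probe was not well above background. BCL2L1 and BAX lie lower, and BMF and BCL2L11 higher, in both butyrate treatments, while PMAIP1 and BIK are highest in NaB cells.

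Among the protective genes, BCL2L1 fell with butyrate. It encodes Bcl-xL, which binds BAX, BAK1 and BH3-only proteins, and also, by splicing, a shorter form with the opposite action, which the probe was not stated to separate. Its level ran from 1.22 to 1.61 in Ctl arrays (median 1.45), from -0.91 to -0.47 in NaB arrays (median -0.82), from 1.14 to 1.59 in Doxy arrays (median 1.5) and from -0.92 to -0.44 in DoxyNaB arrays (median -0.60). The arrays with butyrate did not overlap those without it. The log2 change of BCL2L1 was -2.15 ± 0.13 in NaB/Ctl (4.45-fold lower, adjusted p = 1.84e-14, limma) and -2.07 ± 0.18 in DoxyNaB/Doxy (4.20-fold lower, adjusted p = 2.61e-14, limma). It was lower in 6 of 6 experiments both times, and the NaB/Ctl change was -2.16 in experiments 2 to 4 and -2.23 in experiments 5 and 6, which were scanned apart. Doxycycline left no detectable difference, with a change of 0.00 ± 0.09 in Doxy/Ctl (adjusted p = 0.998, limma).

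MCL1, a short-lived protective protein that PMAIP1 binds, moved the other way by less than 2-fold. Its level lay between 0.58 and 1.27 in Ctl (median 1.04), 1.57 and 1.73 in NaB (median 1.65), 1.02 and 1.35 in Doxy (median 1.23), and 1.44 and 1.80 in DoxyNaB arrays (median 1.72). Every butyrate array was above every array without butyrate. The change was 0.69 ± 0.20 in NaB/Ctl (adjusted p = 2.66e-07, limma) and 0.47 ± 0.16 in DoxyNaB/Doxy (adjusted p = 2.82e-05, limma), higher in 6 of 6 experiments. Its sign depends on the scaling: with scaling to the median after a floor, which moved the median of all genes in NaB/Ctl from 0.17 to -0.58, the MCL1 change was -0.06 (adjusted p = 0.794, limma), beside that median.

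BCL2, the founding member of the family, was the 1 member not tested. Neither of its probes cleared background on every array of any treatment. The probe at chr18:58941703-58941762 was well above background on 3 arrays of each treatment, and its level ran from -6.64 to -4.54 in Ctl and from -6.58 to -2.76 in NaB arrays. The probe at chr18:59136381-59136440 passed on 3 or 4 arrays of a treatment. On both, the highest NaB value was in experiment 3 and the highest DoxyNaB value in experiment 2, the arrays with the highest negative controls. In a fit of all probes without the filter, the first gave a NaB/Ctl change of 0.88 (adjusted p = 0.0661, limma) and the second one of 0.86 (adjusted p = 0.24, limma). The median over all genes in that fit was 0.70. In experiments 2 to 4 alone, where more spots had signal, the same probes gave 1.70 and 2.55 (adjusted p = 0.0433 and 0.0206, limma). There the median over all genes was 0.85. A change in BCL2 past the threshold was not detectable at this signal.

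The pore formers moved in opposite directions. BAX, which moves from the cytosol to mitochondria when activated, fell on both of its probes. On probe 1 its level ran from 1.34 to 2.58 in Ctl arrays (median 2.40), from 0.77 to 1.17 in NaB arrays (median 1.00), from 2.16 to 2.41 in Doxy arrays (median 2.20) and from 0.51 to 1.21 in DoxyNaB arrays (median 0.96). The Ctl array of experiment 4 was the lowest of its group, and it still lay above all NaB arrays. The change was -1.22 ± 0.47 in NaB/Ctl (2.33-fold lower, adjusted p = 6.04e-07, limma) and -1.34 ± 0.31 in DoxyNaB/Doxy (2.53-fold lower, adjusted p = 1.96e-07, limma). Within scans, the NaB/Ctl change was -1.06 in experiments 2 to 4 and -1.36 in experiments 5 and 6. BAX probe 2, upstream of probe 1 on the same strand, had levels of -1.06 to -0.18 in Ctl (median -0.43), -2.15 to -1.57 in NaB (median -1.84), -0.67 to -0.37 in Doxy (median -0.51) and -2.23 to -1.58 in DoxyNaB arrays (median -1.86). It too kept the butyrate arrays apart from the others, with changes of -1.37 ± 0.38 and -1.36 ± 0.34 in NaB/Ctl and DoxyNaB/Doxy (adjusted p = 1.97e-08 and 2.24e-08, limma).

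BAK1, the pore former that resides at the mitochondrial membrane, was higher with butyrate by less than 2-fold. Its levels spanned 0.21 to 1.37 in Ctl (median 0.89), 0.96 to 1.89 in NaB (median 1.33), 0.43 to 1.17 in Doxy (median 0.74) and 1.07 to 1.80 in DoxyNaB arrays (median 1.44). The groups overlapped across experiments, but within experiments BAK1 was higher with butyrate in 6 of 6, by 0.51 ± 0.30 in NaB/Ctl (adjusted p = 0.000302, limma) and by 0.68 ± 0.26 in DoxyNaB/Doxy (adjusted p = 1.41e-05, limma). With scaling to the median the NaB/Ctl change turned to -0.24 (adjusted p = 0.351, limma).

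**Figure D2:**
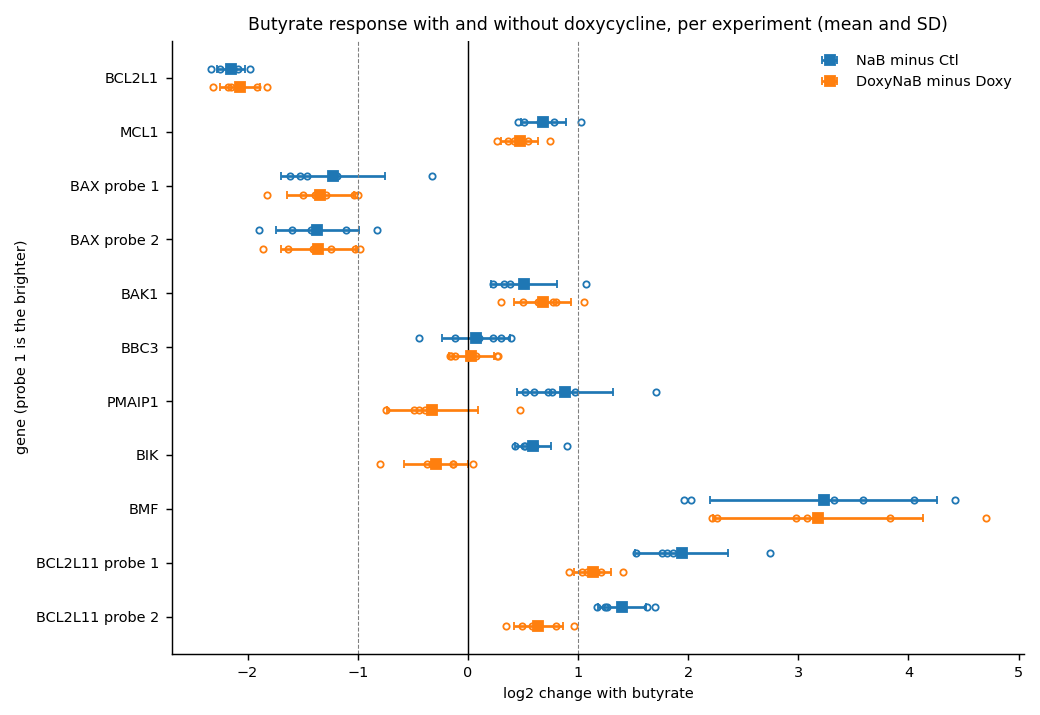
Log2 change with butyrate (x axis) of each tested probe (y axis), for NaB minus Ctl and DoxyNaB minus Doxy, with 1 circle per experiment, squares for the mean, bars for the SD over 6 experiments and dashed lines at a 2-fold change. BCL2L1 and BAX responded alike with and without doxycycline, whereas the circles of PMAIP1 and BIK fall mostly on opposite sides of 0.

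The BH3-only genes differed in how they responded to butyrate. BMF, whose protein is held at the cytoskeleton and is known to be released upon loss of attachment, was higher with butyrate. Its tested probe passed the background test on 6 of 6 NaB and 6 of 6 DoxyNaB arrays, but on 3 of 6 Ctl and 4 of 6 Doxy arrays. Because it was tested through the arrays on which it was high, its changes are given as a description, with no test. The level ran from -6.46 to -3.24 in Ctl (median -4.41), from -2.04 to -0.46 in NaB (median -1.30), from -6.04 to -3.39 in Doxy (median -3.95) and from -1.91 to -0.49 in DoxyNaB arrays (median -1.23). All butyrate arrays were above all arrays without butyrate. Over the experiments in which both arrays had it well above background, the log2 change was 2.44 ± 0.77 in NaB/Ctl (SD, n = 3, experiments 2 to 4) and 2.63 ± 0.46 in DoxyNaB/Doxy (SD, n = 4, experiments 1 to 4). With the dim arrays included it was 3.23 ± 1.03 and 3.18 ± 0.96, higher in 6 of 6 experiments. The NaB/Ctl change was 4.01 in experiments 5 and 6, and with normexp background correction it was 1.27 over all experiments. Without the NaB and DoxyNaB arrays of highest negative controls, which also held the highest BMF level of their group, it was 3.13. The gene's other probe was not tested, with 3 or 4 arrays of a treatment well above background, and with a filter that asks for signal on all 24 arrays BMF was not tested at all.

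BCL2L11 encodes BIM, which binds all protective members and can activate BAX directly. On probe 1, its level ran from -1.63 to 0.15 in Ctl (median -0.17), from 0.13 to 2.04 in NaB (median 1.59), from -0.57 to 0.36 in Doxy (median -0.02) and from 0.38 to 1.52 in DoxyNaB arrays (median 1.11). Ctl and NaB arrays overlapped only through the NaB array of experiment 1, the experiment that also had the lowest Ctl level. The change was 1.94 ± 0.42 in NaB/Ctl (3.84-fold higher, adjusted p = 5.74e-08, limma) and 1.14 ± 0.17 in DoxyNaB/Doxy (2.20-fold higher, adjusted p = 4.36e-05, limma). The latter is close to the 2-fold limit and was below it with normexp (0.99, adjusted p = 0.00274), with scaling to the median (0.58, adjusted p = 0.0577, limma) and as a mean over both probes (0.89, adjusted p = 3.92e-06, limma). BCL2L11 probe 2 was dimmer and tighter, with levels of -3.48 to -2.81 in Ctl (median -3.02), -1.79 to -1.63 in NaB (median -1.69), -3.21 to -2.91 in Doxy (median -3.13) and -2.61 to -2.18 in DoxyNaB arrays (median -2.49). On this probe no 2 of Ctl, NaB and DoxyNaB overlapped, and DoxyNaB lay between the others. It rose by 1.40 ± 0.22 in NaB/Ctl (2.64-fold, adjusted p = 4.51e-10, limma) and by 0.64 ± 0.22 in DoxyNaB/Doxy (1.56-fold, adjusted p = 1.33e-05, limma). With quantile normalization these became 0.62 (adjusted p = 0.0498) and -0.18 (adjusted p = 0.565, limma), so that the direction of this dim probe in DoxyNaB/Doxy depends on the normalization. The remaining probe of BCL2L11 was well above background on 12 of 24 arrays and was not tested.

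BBC3, which encodes PUMA, a p53 target, gave no detectable change with butyrate. Its levels lay between 0.76 and 2.00 over all 24 arrays, and the 4 treatments overlapped. The change was 0.08 ± 0.31 in NaB/Ctl (adjusted p = 0.48, limma) and 0.03 ± 0.21 in DoxyNaB/Doxy (adjusted p = 0.779, limma). With scaling to the median it was -0.67 (adjusted p = 0.00892, limma), near the median of all genes under that scaling.

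PMAIP1 and BIK responded to butyrate differently with and without doxycycline. PMAIP1 encodes NOXA, which binds MCL1. Its level ran from -0.92 to 0.09 in Ctl (median -0.04), from 0.45 to 0.93 in NaB (median 0.71), from -0.19 to 0.63 in Doxy (median 0.48) and from -0.24 to 0.29 in DoxyNaB arrays (median 0.08). NaB arrays were all above Ctl and all above DoxyNaB arrays. PMAIP1 changed by 0.88 ± 0.43 in NaB/Ctl (adjusted p = 1.77e-05, limma, higher in 6 of 6 experiments) and by -0.32 ± 0.42 in DoxyNaB/Doxy (adjusted p = 0.0467, limma, lower in 5 of 6). The interaction was 1.20 ± 0.21 (adjusted p = 0.00168, limma), above 0 in 6 of 6 experiments. Doxycycline moved it in opposite ways without and with butyrate, by 0.57 ± 0.09 in Doxy/Ctl (adjusted p = 0.0574, limma, higher in 6 of 6) and by -0.63 ± 0.19 in DoxyNaB/NaB (adjusted p = 0.0114, limma, lower in 6 of 6), neither of which passed.

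BIK, the first BH3-only protein described, acts largely from the endoplasmic reticulum. Its level ran from 1.72 to 2.35 in Ctl (median 1.81), from 2.23 to 2.86 in NaB (median 2.47), from 1.66 to 2.11 in Doxy (median 1.84) and from 1.13 to 1.82 in DoxyNaB arrays (median 1.63). All NaB arrays were above all DoxyNaB arrays, while the lowest NaB array was below the highest Ctl array. BIK changed by 0.59 ± 0.16 in NaB/Ctl (adjusted p = 1.33e-05, limma, higher in 6 of 6) and by -0.29 ± 0.29 in DoxyNaB/Doxy (adjusted p = 0.00949, limma, lower in 5 of 6). The latter is one of the 7 members counted above and passed narrowly. Its adjusted p was above 0.01 without experiment 1 (0.0323), 2 (0.0694, at a change of -0.18), 4 (0.0324), 5 (0.0151) or 6 (0.0102), with quantile normalization (0.0463, at -0.17), with normexp (0.0144) and with no experiment block (0.0662), all by limma. The interaction was 0.88 ± 0.31 (adjusted p = 0.000647, limma), above 0 in 6 of 6 experiments. In DoxyNaB/NaB, BIK changed by -0.95 ± 0.20 (1.93-fold lower, adjusted p = 2.80e-06, limma), in 6 of 6 experiments, while in Doxy/Ctl its change was -0.07 (adjusted p = 0.855, limma). The sign of its NaB/Ctl change turned with scaling to the median (-0.16, adjusted p = 0.564, limma).

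Across the family, then, 2 of the 9 tested members had a called interaction, both above 0, against 1.36% of all genes (1.12% above 0). BCL2L11 leaned the same way on both probes. Its interaction was 0.76 ± 0.40 on probe 2 (adjusted p = 0.00451, limma) and 0.81 ± 0.49 on the brighter probe 1, which did not pass (adjusted p = 0.188, limma), above 0 in 6 of 6 experiments on each. The remaining 6 members gave interactions between -0.17 and 0.22, none of which passed. No member was called in Doxy/Ctl, where 0.0924% of all genes were called and 0.554% passed the adjusted p, nor in DoxyNaB/NaB, where 0.403% were called (limma). At an unadjusted p under 0.05 the members passing were 3 of 9 in Doxy/Ctl (13.3% of all genes) and 2 of 9 in DoxyNaB/NaB (16.1%). BIK alone passed the adjusted p in DoxyNaB/NaB (2.03% of all genes passed and were lower), and BCL2L11 probe 2, which does not represent its gene, changed there by -0.74 ± 0.17 (adjusted p = 0.000105, limma).

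**Figure D3:**
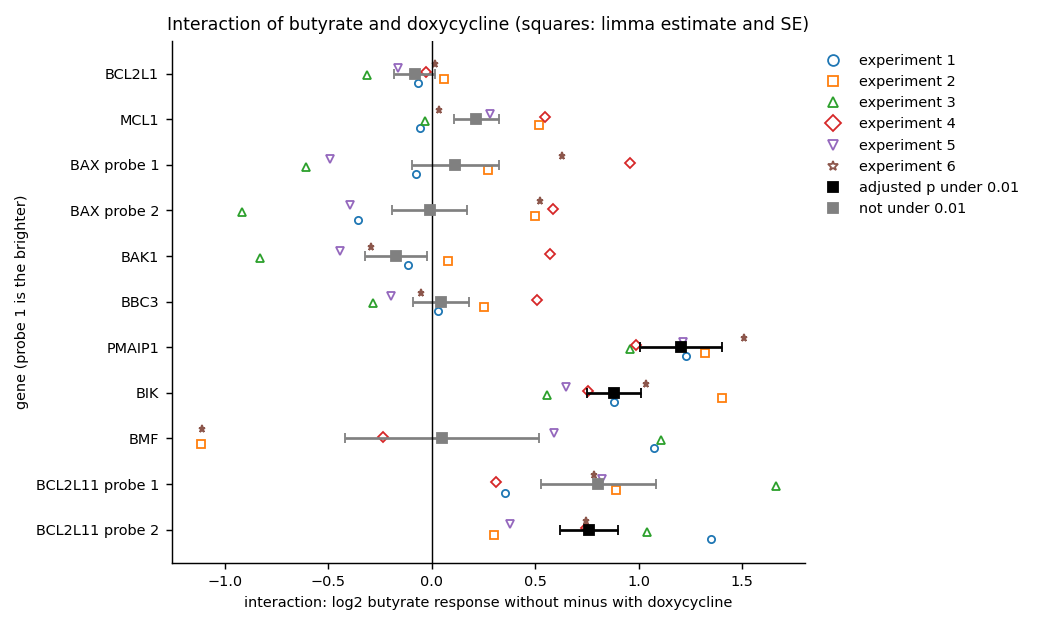
Interaction of each tested probe (x axis, log2 butyrate response without doxycycline minus with it), with 1 small symbol per experiment and squares with bars for the limma estimate and its SE, black where the adjusted p was under 0.01. PMAIP1, BIK and both BCL2L11 probes lie above 0 in all 6 experiments, and the symbols of the other probes straddle 0.

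Which interactions passed depended on single experiments and on the processing. PMAIP1 ranged from 1.14 to 1.25 when any 1 experiment was left out, but its adjusted p rose above 0.01 without experiment 2 (0.015), 4 (0.0132), 5 (0.0191) or 6 (0.0171), with normexp (0.0479) and when arrays were scaled to their median (0.937, at an interaction of 1.01), all by limma. BIK ranged from 0.78 to 0.95, and its adjusted p stayed under 0.01 without any 1 experiment but was 0.02 without the experiment as a block and 0.983 with scaling to the median, where the interaction was 0.69. By the methods' t-test after Benjamini-Hochberg neither passed, and 0 of all 15155 genes did. BCL2L11 probe 2 lost its call without experiment 1 (0.0245), 3 (0.0446), 4 (0.0359), 5 (0.0114) or 6 (0.0189), with quantile normalization (0.486) and with normexp, where its interaction was 0.07 (adjusted p = 0.904, limma). The call was also lost with scaling to the median (0.983, at 0.57) and without the background filter (0.0183), both by limma. The percentile over probes well above background on all arrays (0.0104, limma) and the methods' t-test after Benjamini-Hochberg (0.171) gave no call either. Within scans the interaction was 1.09 and 1.36 for PMAIP1, 0.90 and 0.84 for BIK, and 0.70 and 0.56 for BCL2L11 probe 2, in experiments 2 to 4 and in experiments 5 and 6, with no call in either subset. In both subsets 0 of all genes tested had a called interaction, so the lack of a call is not particular to these members. With scaling to the median, 8 of all 15155 genes had one.

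As a description of the sequence in front of these genes, promoter windows from RefSeq (GRCh38.p14) were searched for the GC box (GGGCGG, both strands) and for the Tcf motif CTTTGAT (both strands); these motifs do not overlap each other. The table held 10 windows for 8 members, and none for MCL1 and BIK. Stretches of 250 bases before the start are given for PMAIP1 and BCL2L11, which leaned the same way in the interaction, and for BMF. The level of BMF was higher in both butyrate comparisons, which is a description, because its probe was tested through its butyrate arrays. GC boxes are in capitals.
PMAIP1 (chr18:59899746-59899995, plus strand): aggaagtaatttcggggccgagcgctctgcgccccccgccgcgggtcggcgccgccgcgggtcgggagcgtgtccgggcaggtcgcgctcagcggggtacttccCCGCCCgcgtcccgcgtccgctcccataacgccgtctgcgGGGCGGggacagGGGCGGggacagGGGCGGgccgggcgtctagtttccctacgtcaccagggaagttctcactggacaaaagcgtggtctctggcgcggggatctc
BCL2L11 (chr2:111120664-111120913, plus strand): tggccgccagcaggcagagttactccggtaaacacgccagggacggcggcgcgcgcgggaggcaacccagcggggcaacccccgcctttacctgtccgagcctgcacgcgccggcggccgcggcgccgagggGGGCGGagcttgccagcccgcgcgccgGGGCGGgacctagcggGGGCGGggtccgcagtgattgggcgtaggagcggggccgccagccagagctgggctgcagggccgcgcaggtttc
BMF (chr15:40108880-40109129, minus strand): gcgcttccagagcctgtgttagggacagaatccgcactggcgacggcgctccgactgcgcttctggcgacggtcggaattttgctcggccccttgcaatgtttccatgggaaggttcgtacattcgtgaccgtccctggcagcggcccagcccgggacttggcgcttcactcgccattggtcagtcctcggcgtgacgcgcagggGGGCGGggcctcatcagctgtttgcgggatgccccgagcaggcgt
PMAIP1 held 4 GC boxes, BCL2L11 3 and BMF 1, in stretches with 72.8%, 76.8% and 65.2% G and C, whereas the other BMF window held 0. BAK1 held 2, BAX 1, and the windows of BBC3, BCL2 and BCL2L1 0. Of all 35116 promoters of the same length, 42.6% held at least 1 GC box. The Tcf motif was in 1 window of a member, that of BAK1, and in 2.26% of all promoters. A match is a description of the letters and not a binding site.

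Of 13 other BCL2 family genes, 10 were tested. In NaB/Ctl 4 of the 10 were called (32.4% of all genes), 1 higher (21.0%) and 3 lower (11.5%), and in DoxyNaB/Doxy 5 were called (31.2%), 2 higher (18.7%) and 3 lower (12.5%). Their median change was -0.67 in NaB/Ctl and -0.55 in DoxyNaB/Doxy, beside 0.17 and 0.11 over all genes. BID, a BH3-only protein cleaved by caspase-8 that links death receptors to mitochondria, changed by -2.78 ± 0.22 in NaB/Ctl and by -2.68 ± 0.25 in DoxyNaB/Doxy (adjusted p = 1.05e-14 and 1.46e-14, limma). BCL2L2, which encodes the protective Bcl-w, changed by -1.09 ± 0.46 (adjusted p = 6.20e-05, limma), and BOK, a relative of BAX, by -1.08 ± 0.26 (adjusted p = 1.11e-08, limma) in NaB/Ctl. With normexp both fell short of 2-fold, at -0.87 (adjusted p = 0.000482) and -0.96 (adjusted p = 3.36e-07, limma). BNIP3L, a mitochondrial receptor for autophagy, rose by 1.43 ± 0.32 in NaB/Ctl and by 1.28 ± 0.17 in DoxyNaB/Doxy (adjusted p = 4.48e-10 and 2.09e-09, limma). HRK, a BH3-only gene, passed the interaction: its change was -0.74 ± 0.22 in NaB/Ctl and -1.29 ± 0.15 in DoxyNaB/Doxy, an interaction of 0.55 ± 0.10 (adjusted p = 0.00653, limma) that was 0.26 with normexp (adjusted p = 0.617, limma).

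Downstream of the mitochondria, all 17 caspase activation genes and their inhibitors were tested. In NaB/Ctl 6 of 17 were called (32.4% of all genes), 3 higher (21.0%) and 3 lower (11.5%), and in DoxyNaB/Doxy 4 (31.2%), of which 1 was higher (18.7%) and 3 lower (12.5%). Their median change was 0.11 in each, beside 0.17 and 0.11 over all genes. CASP9, the initiator caspase of the apoptosome, rose by 1.18 ± 0.07 in NaB/Ctl and by 1.42 ± 0.07 in DoxyNaB/Doxy (adjusted p = 2.33e-13 and 2.21e-14, limma). Inhibitors of apoptosis moved both ways. BIRC5 (survivin), which also acts in mitosis, changed by -1.84 ± 0.30 (adjusted p = 3.10e-11, limma) and XIAP, which binds caspases directly, by -1.10 ± 0.22 (adjusted p = 3.78e-08, limma), whereas BIRC3 rose by 1.46 ± 0.08 (adjusted p = 4.71e-10, limma) and NAIP by 1.01 ± 0.28 (adjusted p = 5.26e-07, limma), all in NaB/Ctl. VDAC1, a channel of the outer mitochondrial membrane, changed by -1.12 ± 0.14 (adjusted p = 3.34e-11, limma). BIRC3 was the 1 gene of this list to pass the interaction, at 0.86 ± 0.44 (adjusted p = 0.0022, limma), with a change of 0.60 ± 0.39 in DoxyNaB/Doxy; with normexp this interaction was 0.01 (adjusted p = 0.987, limma). With normexp the NaB/Ctl changes of CASP9 (0.96, adjusted p = 5.66e-08) and XIAP (-0.91, adjusted p = 6.75e-06) fell short of 2-fold only, and those of BIRC3 (0.63, adjusted p = 0.0103) and NAIP (0.34, adjusted p = 0.125, limma) missed the adjusted p as well, which left BIRC5 and VDAC1 called. With scaling to the median no gene of either list was called higher, beside 1355 of all 15155 genes in NaB/Ctl and 1459 in DoxyNaB/Doxy.

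**Figure D4:**
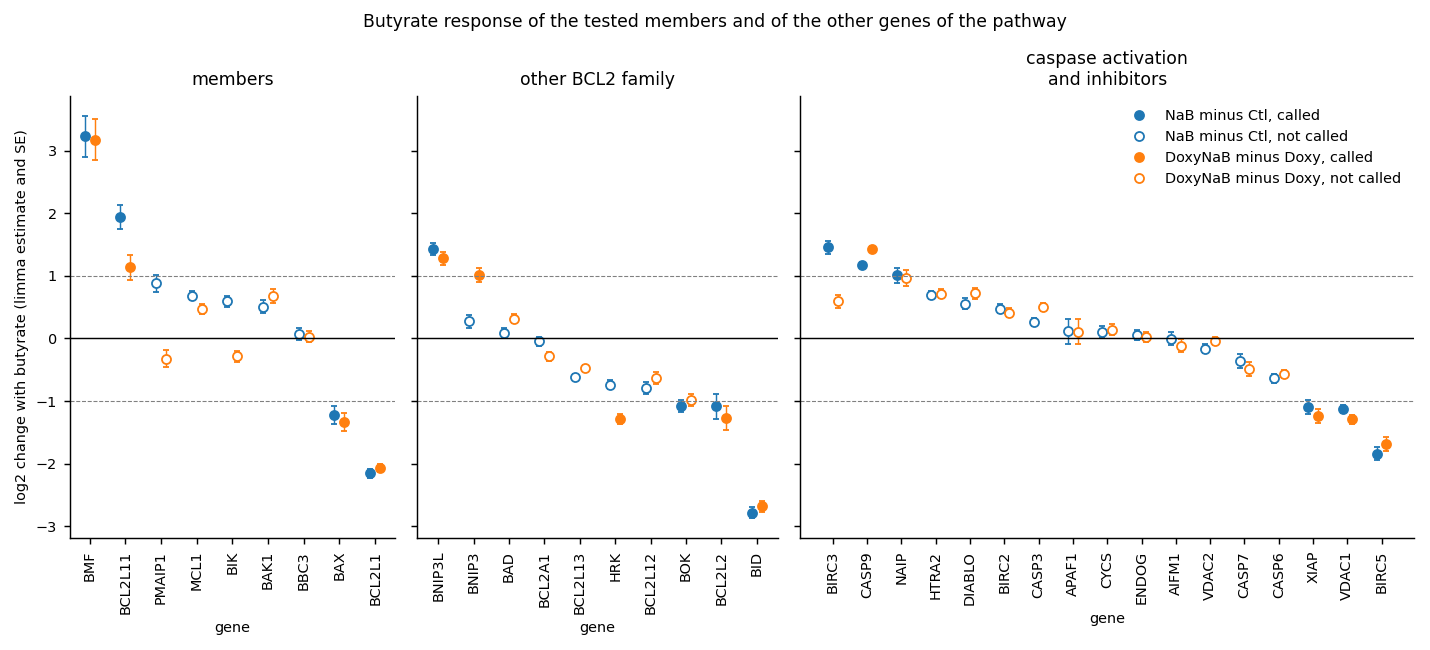
Log2 change with butyrate (y axis, limma estimate and SE) of the tested members, the other BCL2 family genes and the caspase activation genes with their inhibitors (x axis, ordered by NaB minus Ctl), with filled circles where called and dashed lines at a 2-fold change. Falls of BID, BCL2L1 and BIRC5 and rises of BMF and BCL2L11 lie beyond the dashed lines.

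How the arrays are scaled sets the sign of the small changes, as the plot of the members under 6 scalings shows. In NaB/Ctl the median of all genes was 0.17 with the 75th percentile, 0.08 with normexp, -0.06 with quantile normalization, -0.58 with scaling to the median, 0.31 with the percentile taken over probes well above background on all arrays, and 0.07 with each probe counted once. By their brightest tested probe, BCL2L1, BAX, BMF and BCL2L11 were called in the same direction in NaB/Ctl under each of these 6, BMF with the limit given above. MCL1, BAK1, PMAIP1 and BIK were above the median of all genes under each, a difference that was not tested. Against 0 their adjusted p was under 0.01 except with scaling to the median, where MCL1, BAK1 and BIK turned below 0.

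**Figure D5:**
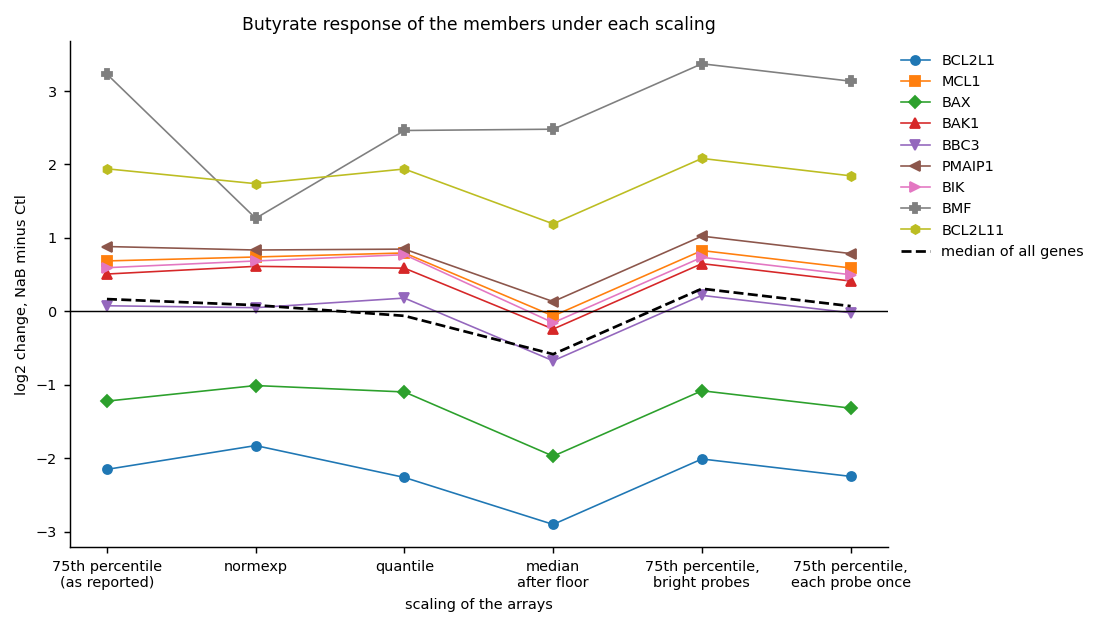
Log2 change in NaB minus Ctl (y axis) of the 9 tested members under 6 scalings of the arrays (x axis), with the median of all genes as a dashed line. BMF and BCL2L11 stay above and BAX and BCL2L1 below the other members, and MCL1, BAK1 and BIK cross 0 with scaling to the median, where the median of all genes is -0.58.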

How the data were processed

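Expression was measured on 24 one-colour Agilent arrays. The deposited intensity values are, per the file headers, the processed signal of Agilent Feature Extraction 9.5.3.1, with background subtracted and spatial trend removed within the array and no scaling between arrays; the mean spot brightness and local background were used for the normexp alternative. Per the study's methods the authors analysed such values in GeneSpring GX with a paired test. Here control spots and outlier-flagged spots (359 to 795 per array) were left out, replicate spots averaged, and from each log2 signal the log2 of the array's upper quartile over non-control spots (380.2 to 1323 signal units) was subtracted. The software put surrogate values where a spot was close to the negative controls, so levels of dim probes are imprecise. Well above background is the software's own test, and for a probe printed in 10 spots at least 0.5 of them had to pass; 18984 probes for 15155 gene names were tested. The number of arrays and the signal over background limit the precision.

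The fit held all 24 arrays (limma 3.58.1 in R 4.3.3; lmFit, then eBayes), with treatment and, because the methods name a paired test, experiment as a block. After subtraction of treatment means, same-experiment arrays were correlated, with r of 0.218 to 0.851 for all pairs but 1 (experiment 3, NaB with DoxyNaB, -0.217), and in 5 of 6 experiments the 4 arrays lie on one slide. The fit was tested on simulated data. Members were named by role with every probe; from each list the 3 highest and 3 lowest called in NaB/Ctl and genes passing the interaction were named, and HRK, BIRC3, TCF7L2 and AXIN2 fall under that rule. The members and the lists were chosen with earlier results of these data known. A percentile over probes each counted once was added after seeing the data. Other alternatives were normexp (offset 50), quantile normalization, median scaling after a floor of 5, other percentiles, other filters, blocks, tests and thresholds, subsets by scan, and leaving out arrays or experiments. Plots used Python 3.11.15 with numpy 2.4.6, pandas 2.3.3 and matplotlib 3.10.9.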

Additional observations from a re-analysis of the deposited data

Results flagged for a closer look

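In 3 of 44 groups of 6 arrays, 1 array stood apart from the others by the Dixon criterion, which chance gives in about 1 of 20 groups. All 3 were in experiment 1, where the arrays with and without butyrate were on separate slides and scanned on separate dates. BBC3 had a level of 1.89 on the NaB array, with 1.27 as the next. PMAIP1 had a level of -0.92 on the Ctl array, with -0.28 as the next, and without experiment 1 its interaction was 1.20 (adjusted p = 2.66e-05, limma). BCL2L11 probe 1 had a level of 0.13 on the NaB array, with 1.41 as the next, and without experiment 1 its NaB/Ctl change was 1.98 (adjusted p = 5.36e-08, limma).

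The butyrate response differed between cells without and with doxycycline for PMAIP1 (interaction 1.20), BIK (0.88) and BCL2L11 probe 2 (0.76), by the interaction term of the fit.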

How the results depend on the processing

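Of 985 pairs of a member's change and an alternative, 953 stayed on the same side of the threshold. Each of the 953 kept its sign or, where neither fit called it, turned sign by less than the SD over experiments. Another 20 lost the call and 4 gained it, with the sign kept. The remaining 8, without a call, turned sign by at least that SD. For no called change was the sign turned. Most of the changes behind these pairs were not called to begin with, so they had no call to lose. Of 22 alternatives, the called interaction was lost in 9 for PMAIP1 and in 5 for BIK. Without a fold threshold, the members called were 8 in NaB/Ctl, 7 in DoxyNaB/Doxy and 1 in DoxyNaB/NaB (BIK). Of all 15155 genes, 10555, 10364 and 413 were called there, in the same order. At a fold over 1.5 the members called were 7 in NaB/Ctl and 1 in DoxyNaB/NaB, beside 7969 and 180 of all genes. In experiments 2 to 4 alone, 2 members were called in DoxyNaB/Doxy (BAX and BCL2L1) and 0 in the interaction. Of all 23687 genes tested there, 5113 were called in NaB/Ctl, 4258 in DoxyNaB/Doxy and 0 in the interaction. Experiments 5 and 6 alone gave 0 in the interaction, among the members and among all 15795 genes tested. In experiments 2 to 4 the brightest tested probe of BMF is the other one, which missed the threshold in NaB/Ctl (3.65, adjusted p = 0.0139) and DoxyNaB/Doxy (1.86, adjusted p = 0.133, limma). With normexp, 1 member was called in DoxyNaB/NaB (BIK) and 1 in the interaction (BIK), beside 31 and 37 of all 15155 genes. With scaling to the median 0 members were called in the interaction, beside 8 of all genes. The methods' t-test called 0 members in the interaction after Benjamini-Hochberg and 3 (BCL2L11, BIK, PMAIP1) before, beside 0 and 713 of all 15155 genes. Leaving out 1 experiment gave 0 to 1 members in DoxyNaB/NaB, 1 of them without replicate 3, and 1 to 2 in the interaction, and changed no count of members in the other comparisons. Over all genes, these fits called 53 to 62 in DoxyNaB/NaB and 94 to 165 in the interaction. The other BCL2 family genes called in NaB/Ctl were 2 with normexp, with the percentile over bright probes and in experiments 2 to 4, and 7 without a fold threshold and at 1.5; in DoxyNaB/Doxy they were 2 with normexp, 3 in experiments 2 to 4 and 10 without a fold threshold. The caspase activation genes called in NaB/Ctl were 2 with normexp, 3 with quantile normalization and 12 without a fold threshold, and in DoxyNaB/Doxy 12 without a fold threshold and 8 at 1.5. Of all 15155 genes, 2555 were called in NaB/Ctl and 3086 in DoxyNaB/Doxy with normexp, against 4917 and 4723 with the 75th percentile. In NaB/Ctl, 4507 were called with quantile normalization and 5056 with the percentile over bright probes. At a fold over 1.5, 7762 were called in DoxyNaB/Doxy. Apart from the settings that change the threshold or the number of arrays, the cause was not tested.

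With no replicate block, 1 member was called in the interaction, PMAIP1, while BIK (adjusted p = 0.02, limma) was lost. Of all 15155 genes, 71 were called there. The pairing changed no other call of a member. All genes called in NaB/Ctl were 3180 higher and 1737 lower, against 2076 and 2431 with quantile normalization and 1355 and 4933 when arrays were scaled to their median. The DoxyNaB/Doxy numbers were 2833 and 1890, against 2031 and 2457, and 1459 and 4181. Signal over background limits BCL2, BMF in cells without butyrate, and BCL2L11 probe 2.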
